A study of Homo sapiens with 12 samples.

Results

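The tubulin folding cofactors are the proteins that turn newly made alpha- and beta-tubulin into the dimer from which microtubules are built. Their genes were chosen by symbol: TBCA, TBCB, TBCC, TBCD, TBCE, TBCEL and TBCCD1. All 7 were present among the 14884 named genes of the array, each as 1 transcript cluster, the unit that gathers the probes of a gene, and so as 7 of 53617 clusters. The arrays were Affymetrix GeneChip Human Gene 2.0 ST. They were hybridised with total RNA of HEK293 cells, an adenovirus-transformed line from human embryonic kidney that divides continuously in culture. The mimic-1825 group (6 arrays) had received Syn-hsa-miR-1825, a synthetic copy of the microRNA miR-1825, and the control group (6 arrays) AllStars Negative Control siRNA. Both groups were transfected with HiPerfect reagent at 5 nM RNA and lysed after 24 h, and untransfected cells were not analysed here. The labels do not say whether the replicates were separate cultures, so a p-value covers only the variation among these 12 samples, possibly technical, and they name no batch.

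A new tubulin chain is carried by prefoldin to the cytosolic chaperonin CCT, which folds it. TBCB then receives alpha-tubulin and passes it to TBCE, while TBCA receives beta-tubulin and passes it to TBCD. TBCD and TBCE with their tubulins join into a complex from which TBCC, by stimulating GTP hydrolysis, releases the finished dimer. TBCB and TBCE each carry a CAP-Gly domain, and together with TBCD they can also take dimers apart. Mutations in TBCE cause motor neuron degeneration in the pmn mouse. The series title names amyotrophic lateral sclerosis and the search for mRNA targets of miR-1825, and TBCB is known to have been examined by that study as such a target.

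A microRNA finds its targets mainly through its seed, and it can lower the translation of a target, its mRNA level, or both. An array reads only the mRNA. The transfected sequence is shown because its seed is the main guide to possible targets, and the capitals mark that seed, bases 2 to 8.
hsa-miR-1825: uCCAGUGCccuccucucc
The sequence is that of RefSeq on GRCh38.p14, chr20:32237830-32237847, plus strand, and it is 18 bases long. The site that pairs with its seed reads GCACUGG in a transcript. Of 2370 mature microRNA names in the same RefSeq table, 1 has this seed, miR-1825 itself. Transcript sequences of the cofactors were not used here, so it was not tested which of them hold the site.

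None of the 7 cofactor genes passed the test of mimic-1825 against control. The test was limma over all 53617 clusters with Benjamini-Hochberg adjustment and a threshold of 0.05. It called 0.0112% of all clusters, so 0 of 7 is no result about the cofactors. At an unadjusted p under 0.05 the count was again 0 of 7, against 10.8% of all clusters. Both groups overlapped in all 7 genes, where 1.17% of all clusters had groups that did not overlap. Of the 7 means, 3 were higher and 4 were lower in mimic-1825 cells. The median of their log2 fold changes was -0.01, against -0.01 over all clusters. All 7 genes belonged to the clusters whose mean reached the median of all clusters. Fitted alone, that set had a median log2 fold change of 0.006, and 3933 of its 26809 clusters had an unadjusted limma p under 0.05. The log2 fold changes ran between -0.09 and 0.11, and all 7 of the 95% intervals held 0.

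The intervals were narrow, and this sets what the arrays could have missed. The lowest limit over the 7 genes was 0.877-fold and the highest was 1.18-fold. A larger change of the mRNA in either direction lies outside the 95% interval of each cofactor gene, as measured by its cluster on the deposited scale. The standard error of a difference was between 0.042 and 0.077. The within-group SD was 0.050 for TBCD, 0.057 for TBCC, 0.067 for TBCB and 0.137 for TBCA, against a median of 0.127 over the brighter clusters, those whose mean reached the median. TBCA was thus the most variable of the 7 and TBCD the least.

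**Figure D1:**
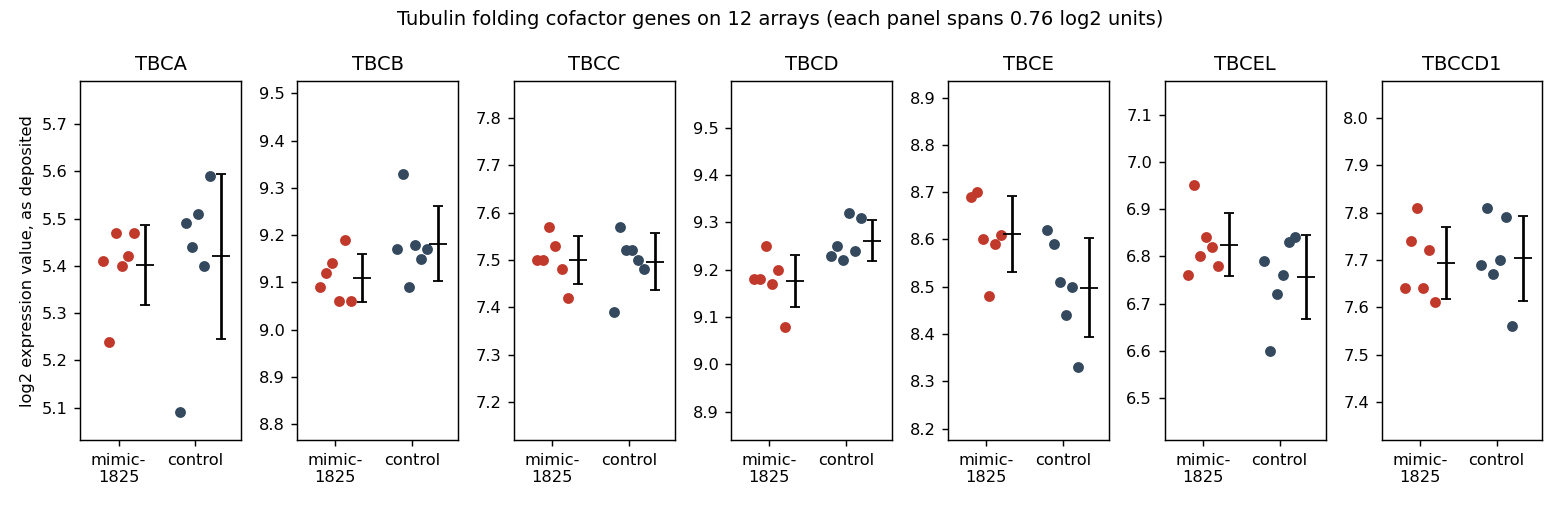
Log2 expression values of the 7 cofactor genes on each array (points, replicates 1 to 6 from left to right), with the mean and SD of each group of 6 beside them. Every panel spans the same number of log2 units around its own gene, so spreads can be compared between panels and levels cannot. The 2 groups overlap in every panel. For TBCD 5 of 6 mimic-1825 arrays lie below all controls, and for TBCB control replicate 2 stands above the other arrays.

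The alpha-tubulin branch begins with TBCB (cluster 16861367, chromosome 19), which binds alpha-tubulin released from the chaperonin. Its log2 values in mimic-1825 cells were 9.06 at the lowest, 9.10 at the median and 9.19 at the highest, and in control cells they were 9.09, 9.17 and 9.33. Of the 6 mimic-1825 arrays 3 lay below every control, and control replicate 2 was the only control above every mimic-1825 array. The log2 fold change was -0.07 with a standard error of 0.05 (0.951-fold, 95% interval 0.885 to 1.02, limma adjusted p = 0.624). A two-sided exact permutation test, which went through the 924 ways to draw 6 arrays from 12, gave p = 0.0693 for this single gene. Without control replicate 2 the log2 fold change was -0.04 (limma adjusted p = 0.793), so this 1 array carried a large part of the difference.

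TBCE (cluster 16678966, chromosome 1), the next cofactor on the alpha-tubulin branch, lay on the other side of 0. Its values in mimic-1825 cells were 8.48, 8.61 and 8.70 (lowest, median and highest), and in control cells 8.33, 8.50 and 8.62. Mimic-1825 replicates 1 and 2 were above all controls, and 2 controls were below all mimic-1825 arrays. The log2 fold change was 0.11 with a standard error of 0.06, or 1.08-fold (interval 0.991 to 1.18, limma adjusted p = 0.516; exact permutation p = 0.0714). TBCEL (cluster 16732520, chromosome 11) encodes a relative of TBCE that destabilises tubulin and lacks the CAP-Gly domain. It had values of 6.76, 6.81 and 6.95 in mimic-1825 cells and of 6.60, 6.77 and 6.84 in control cells. All 6 mimic-1825 arrays lay above the control mean, yet only 2 of them lay above every control, and the log2 fold change of 0.07 did not pass (1.05-fold, interval 0.971 to 1.14, limma adjusted p = 0.667). Without control replicate 2, the lowest array for TBCEL, it was 0.04.

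The beta-tubulin branch has TBCA and TBCD. TBCD (cluster 16839131, chromosome 17), a large scaffold that holds beta-tubulin and binds the GTPase ARL2, showed the lowest fold change of the 7. Its values in mimic-1825 cells were 9.08 at the lowest, 9.18 at the median and 9.25 at the highest, against 9.22, 9.25 and 9.32 in control cells. All 6 mimic-1825 arrays were below the control mean and 5 of them were below every control. Mimic-1825 replicate 3 was the exception and lay within the control range. The log2 fold change was -0.09 with a standard error of 0.04 (0.942-fold, interval 0.884 to 1.00, limma adjusted p = 0.492).

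By the exact permutation test alone, unadjusted, TBCD had p = 0.0108, and it was the 1 of 7 cofactors under 0.05. The same rule held for 11.4% of all clusters, and 3.94% of them had a p as low as that of TBCD or lower. The share of the cofactors is therefore near the background. RefSeq lists 36 transcripts of TBCD, against 1 of TBCC and 3 or 4 of each other cofactor, and a cluster value does not say which of them it reads.

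TBCA (cluster 16997441, chromosome 5), a small chaperone that captures beta-tubulin, had the widest spread. Its values in mimic-1825 cells were 5.24, 5.41 and 5.47 (lowest, median and highest), and in control cells 5.09, 5.47 and 5.59. The lowest and the highest of all 12 values were both controls, replicates 1 and 6. The log2 fold change was -0.02 with a standard error of 0.08 (0.985-fold, interval 0.877 to 1.11, limma adjusted p = 0.947). Its cluster was the only 1 of the 7 outside the brightest 25% of clusters, which began at a mean of 6.29.

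TBCC (cluster 17019250, chromosome 6), which ends the cycle by releasing the dimer, had the smallest difference of the 7. It averaged 7.50 ± 0.05 in mimic-1825 cells and 7.50 ± 0.06 in control cells (log2 value, mean ± SD, n = 6 each). The values ran from 7.42 to 7.57 in mimic-1825 cells and from 7.39 to 7.57 in control cells. Its log2 fold change was 0.004, within limits of 0.938-fold and 1.07-fold (limma adjusted p = 0.986). TBCCD1 (cluster 16962467, chromosome 3), a centrosomal protein gene with a TBCC-like domain, averaged 7.69 ± 0.08 in mimic-1825 cells and 7.70 ± 0.09 in control cells. Its log2 fold change was -0.01 (interval 0.914-fold to 1.08-fold, limma adjusted p = 0.961), with 3 mimic-1825 arrays on each side of the control mean.

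Because TBCB hands its alpha-tubulin to TBCE, the log2 difference between both genes was taken within each array and compared between groups. Of 4 such pairs, set by the proteins' roles with earlier results of these data known, this was the only one that passed. Its p therefore describes these values and is not an independent test. TBCB minus TBCE was 0.40, 0.43, 0.53, 0.58, 0.60 and 0.45 on mimic-1825 arrays 1 to 6, and 0.55, 0.74, 0.58, 0.73, 0.65 and 0.84 on control arrays 1 to 6. The mimic-1825 values had the lower mean: 4 of them lay below every control, 4 controls lay above every mimic-1825 array, and the others overlapped. The mean difference was 0.50 ± 0.09 in mimic-1825 cells and 0.68 ± 0.11 in control cells (SD, n = 6 each), a change of -0.18 (exact permutation p = 0.0108, or 0.0433 adjusted over the 4 pairs). A scaling factor of a whole array cancels in such a difference, and the size of the difference itself does not compare the levels of the 2 genes, which have different probes.

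The call was not stable. It was lost without any 1 of mimic-1825 replicates 1, 2, 3, 4 and 6 or control replicates 2, 4, 5 and 6, with changes from -0.20 to -0.15, and it held without mimic-1825 replicate 5 or control replicate 1 or 3. The pair had been set with the opposite signs of TBCB and TBCE in these data already known, so it is not independent evidence of unequal change.

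The other 3 pairs did not pass. TBCA minus TBCD, the beta-tubulin pair, was -3.78 ± 0.10 on mimic-1825 arrays and -3.84 ± 0.15 on control arrays (change 0.06, exact permutation p = 0.459). TBCE minus TBCEL was 1.79 ± 0.09 on mimic-1825 arrays and 1.74 ± 0.17 on control arrays (change 0.04, exact permutation p = 0.608). TBCC minus TBCCD1 was -0.19 ± 0.06 on mimic-1825 arrays and -0.21 ± 0.09 on control arrays (change 0.02, exact permutation p = 0.714). Adjusted over the 4 pairs, the p of each of these 3 was 0.714 by the same exact test.

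**Figure D2:**
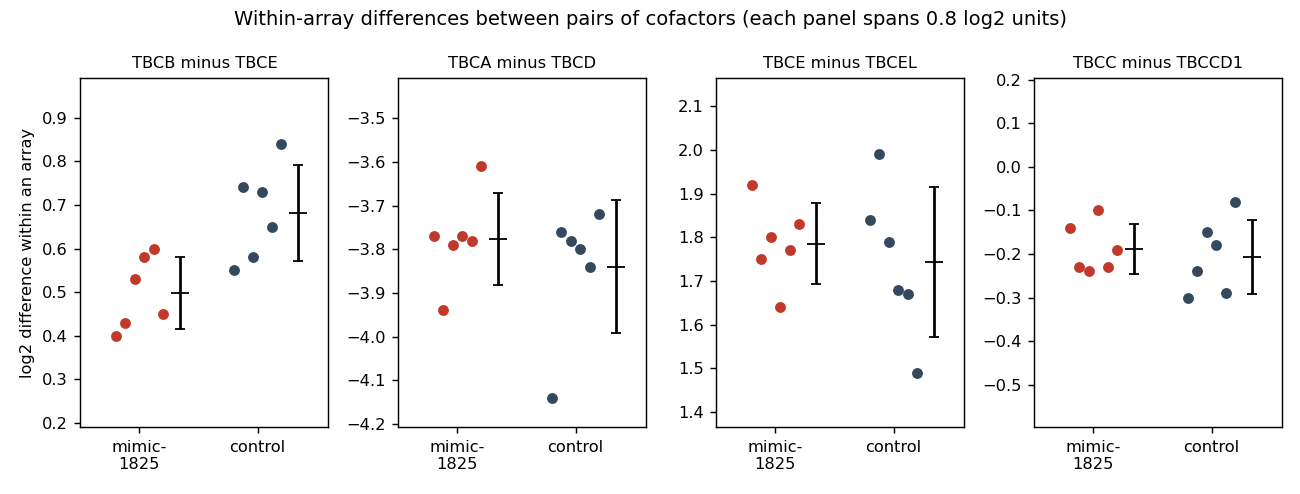
Log2 difference between 2 cofactor genes within each array (points, replicates 1 to 6 from left to right), with the mean and SD of each group of 6. TBCB minus TBCE averages 0.50 on mimic-1825 arrays and 0.68 on control arrays. In the other 3 pairs the group means lie within 1 SD of each other.

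No pair of cofactors had a correlation from array to array that passed after adjustment. Pearson correlations over the 12 arrays were computed for all 21 pairs of cofactors, of which 11 were above 0 and 10 below 0, from -0.59 to 0.54. The adjustment was that of Benjamini and Hochberg over the 21 pairs, and 0 passed by Pearson's r or by Spearman's rho, each with 100000 resamples, and 2 pairs had an unadjusted permutation p under 0.05 by each measure. TBCD and TBCE had r = -0.59 (permutation p = 0.0428, adjusted p = 0.310) and rho = -0.53 (permutation p = 0.0791). Within the mimic-1825 arrays their r was 0.02 and within the control arrays -0.78, so the relation did not hold in both groups.

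TBCA and TBCE had r = -0.59 (permutation p = 0.0462, adjusted p = 0.310) and rho = -0.55 (permutation p = 0.0710). Their r was -0.43 within the mimic-1825 arrays, -0.75 within the control arrays and -0.61 without the 2 arrays farthest from the TBCA median. TBCB and TBCD had rho = 0.69 (permutation p = 0.0155, adjusted p = 0.326) and r = 0.54, with r = 0.60 within the mimic-1825 arrays and 0.09 within the control arrays. TBCA and TBCD had rho = 0.62 (permutation p = 0.0371, adjusted p = 0.332) and r = 0.29, with r = -0.03 within the mimic-1825 arrays and 0.62 within the control arrays. TBCB and TBCE, the partners on alpha-tubulin, had r = -0.07 over the 12 arrays, with r = 0.20 within the mimic-1825 arrays and 0.34 within the control arrays.

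**Figure D3:**
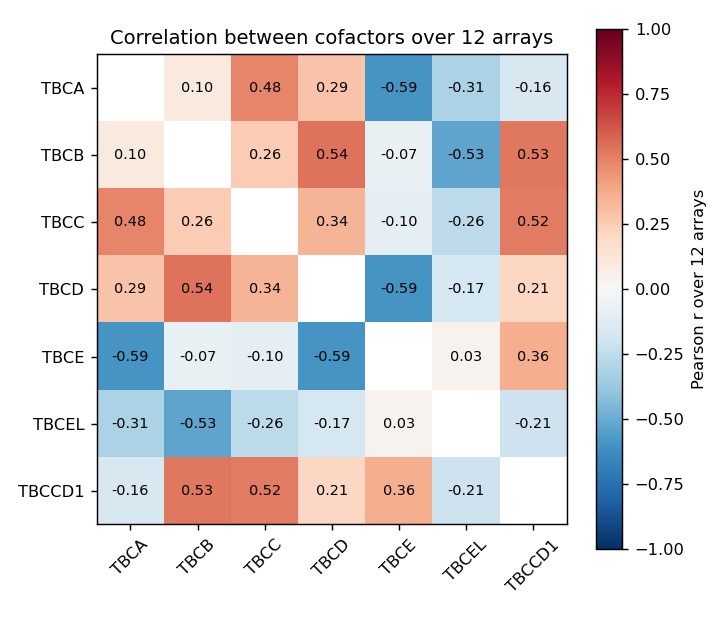
Pearson correlation between each pair of cofactor genes over the 12 arrays, from -1 (blue) to 1 (red). Values range from -0.59 to 0.54 with both signs, and none passed after adjustment over the 21 pairs.

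Among 10697 other named genes of that brighter set, the 5 whose values were most like those of TBCB over the 12 arrays were VGLL3, CHMP2A, D2HGDH, PRAP1 and RUSC1. Their Pearson r with TBCB ran from 0.87 for RUSC1 to 0.88 for VGLL3. These values are the highest of 10697 and are given as a description, with no p. Spearman's rho was 0.76 for VGLL3, 0.84 for CHMP2A, 0.80 for D2HGDH, 0.87 for PRAP1 and 0.65 for RUSC1. Control replicate 2, the highest array for TBCB, weighed on all 5: without it r was 0.72 for VGLL3, 0.71 for CHMP2A, 0.69 for D2HGDH, 0.76 for PRAP1 and 0.65 for RUSC1. CHMP2A, an ESCRT-III membrane-scission gene, averaged 8.91 ± 0.05 in mimic-1825 cells and 8.98 ± 0.08 in control cells (SD, n = 6 each). None of the 5 passed the limma test, with adjusted p-values from 0.533 for RUSC1 to 0.742 for D2HGDH. No other cofactor came near this list, the closest being TBCD with r = 0.54, at rank 554.

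The steps around the cofactors were described through lists of related genes, of which 0 measured members passed limma in either direction. The background at an unadjusted p under 0.05 was 5.36% of all clusters higher in mimic-1825 cells and 5.4% lower. Brighter clusters leaned upward: fitted alone, 2455 of 26809 were higher and 1478 lower at that limma p. In the brightest 25%, 2032 of 13405 clusters were higher and 831 lower. All measured members of the prefoldin, ARL partner and CAP-Gly lists belonged to the brighter clusters, so a lean to higher values is not particular to these lists. Prefoldin subunits and helpers of CCT act just before the cofactors. Of 9 members with a named cluster, called measured here, 6 lay higher and 3 lower by their means (median log2 fold change 0.06), and 1 was higher at an unadjusted p under 0.05. That gene was PDCL3, a phosducin-like protein that assists CCT. It averaged 8.01 ± 0.10 in mimic-1825 cells and 7.81 ± 0.18 in control cells (SD, n = 6 each), 1.14-fold, with a limma adjusted p of 0.414. Its log2 fold change was 0.19 with all arrays and 0.13 without control replicate 5, its lowest array. VBP1, a prefoldin subunit, had a log2 fold change of 0.10 and TXNDC9, another phosducin-like helper, of 0.09. The 9 CCT subunits and the alpha- and beta-tubulins themselves, TUBA4A among them, were not analysed here, because no cluster was named for them in the annotation used, in which 37519 clusters are unnamed.

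The partners of the cofactors and the regulators of ARL GTPases had 7 of 10 members measured, 6 of them with higher and 1 with lower means (median log2 fold change 0.06). In this list 2 were higher at an unadjusted p under 0.05. ELMOD2, which stimulates GTP hydrolysis by ARL2, averaged 8.11 ± 0.09 in mimic-1825 cells and 7.96 ± 0.11 in control cells (SD, n = 6 each), 1.11-fold, with a limma adjusted p of 0.416. RP2, a GTPase-activating protein of ARL3 with a TBCC-like domain, averaged 8.23 ± 0.06 in mimic-1825 cells and 8.12 ± 0.07 in control cells (1.08-fold, limma adjusted p = 0.447). For both genes all 6 mimic-1825 arrays lay above the control mean. ELMOD3 had a log2 fold change of 0.11. ARL2 and PAK1 were not analysed here.

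Other genes with a CAP-Gly domain, the microtubule- and tubulin-binding module of TBCB and TBCE, had 5 higher and 2 lower means among 7 measured, with a median of 0.05 and 0 at an unadjusted p under 0.05. The log2 fold change was 0.09 for CLIP1, a plus-end tracking protein gene, while that of DCTN1, the largest dynactin subunit gene, was 0.06 and that of the kinesin gene KIF13B -0.09. Genes of tubulin modification had 6 higher and 7 lower means among 13 measured, with a median of -0.01 and again 0 at an unadjusted p under 0.05. HDAC6, the tubulin deacetylase gene, had a log2 fold change of -0.08 (-0.04 without mimic-1825 replicate 6), VASH1, which removes the terminal tyrosine of alpha-tubulin, of 0.08, and AGTPBP1, a deglutamylase gene, of 0.05. Of the gamma-tubulin ring complex MZT1 had a named cluster, with a log2 fold change of 0.05, and the other listed genes were not analysed here.

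**Figure D4:**
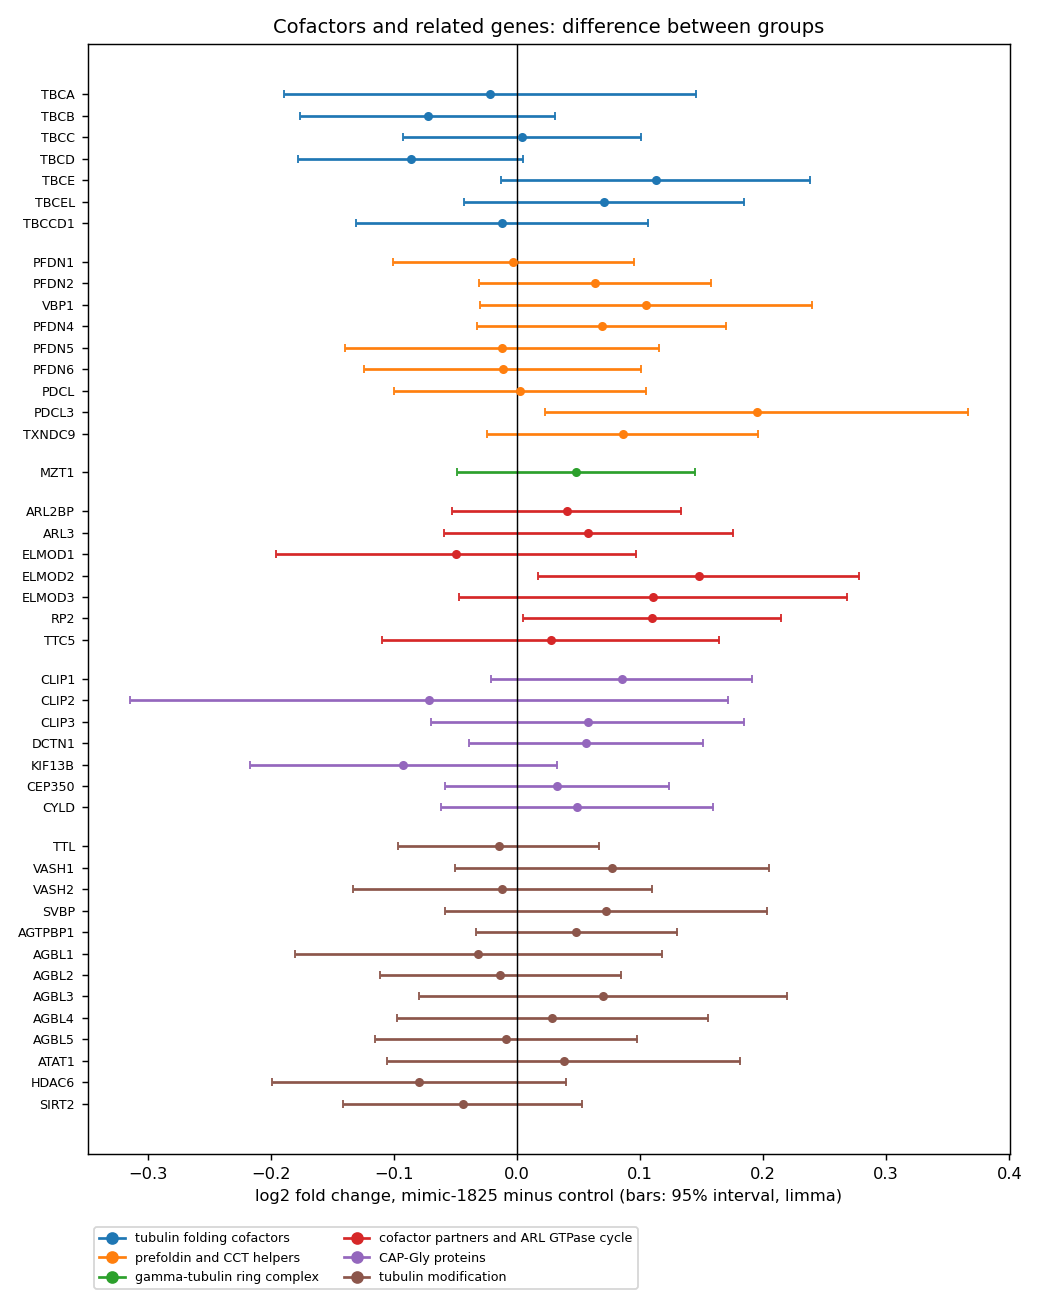
Log2 fold change of mimic-1825 over control (points) with its 95% interval from limma (bars) for the 7 cofactor genes and the measured members of 5 related lists, in colour. All 7 cofactor intervals hold 0, with point estimates from -0.09 (TBCD) to 0.11 (TBCE), and PDCL3, ELMOD2 and RP2 are the genes whose intervals lie above 0 before adjustment.

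The arrays were much alike, with pairwise correlations over all clusters from 0.988 to 0.994 and medians between 4.44 and 4.51. Of 7 listed HEK293 markers only VIM, LIN28B and EYA1 were measured, and 3 of 3 belonged to the brighter clusters. Of 18 listed markers of fibroblasts, leukocytes, hepatocytes and epithelial cancer lines 11 were measured, and 5 belonged to them. Among all named genes 10698 of 14884 did, so 3 of 3 says little about the cells. The summed linear level of the 3 HEK293 markers ran from 1429.1 to 1606.0 on mimic-1825 arrays and from 1480.4 to 1553.7 on control arrays. In the 4 other lists the sums of the groups overlapped as well, with 0 of 11 markers at an unadjusted p under 0.05.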

How the data were processed

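Expression was measured on 12 arrays, 6 per group. The deposited values are log2 expression values, 1 per array and transcript cluster, which the authors computed, the tool being Affymetrix Expression Console as named in the submitters' processing notes. Version, background correction, normalization and summarisation: not given in the sources used here. Values from 1.62 to 14.4 were read as log2. Values were used as deposited. Probe intensities were not used, so background levels are unknown. The number of arrays limits the precision.

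Clusters were named through the supplied platform annotation and RefSeq of GRCh38.p14: 16098 had 1 symbol, 0 several, and 37519 were unnamed here. A gene with several clusters was represented by the one of highest mean.

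Groups were compared with limma 3.58.1 (R 4.3.3, lmFit and eBayes without a block) over 53617 clusters, with Benjamini-Hochberg adjustment. The fit was tested on simulated data, whose planted changes were larger than those of the cofactors. Exact permutation tests used all 924 assignments (smallest p 0.00216). The 4 pairs, 21 correlations and gene lists follow the proteins' roles. Cofactors, pairs and lists were chosen with earlier results of these data known. Named genes are all cofactors, up to 3 genes of smallest p per list, and the 5 genes most like TBCB. Alternatives changed the scaling, prior, filter, block or arrays. Same-numbered arrays deviated from their group means with correlations from -0.113 to 0.0841, so numbers were not treated as pairs.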

Additional observations from a re-analysis of the deposited data

Results flagged for a closer look

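Among 20 genes and 4 pair differences, each in both groups of 6 arrays, 5 of 48 groups had an array set apart from the other 5 by a gap that is large for the group's range, where chance gives about 1 in 20. TBCA was lowest in mimic-1825 replicate 2 at 5.24, against 5.40 to 5.47 in the other mimic-1825 arrays. TBCB was highest in control replicate 2 at 9.33, against 9.09 to 9.18 in the other controls. TBCA minus TBCD was lowest in control replicate 1 at -4.14, against -3.84 to -3.72. PDCL3 was lowest in control replicate 5 at 7.49, against 7.80 to 7.98. MZT1 was lowest in mimic-1825 replicate 2 at 9.68, against 9.81 to 9.88.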

How the results depend on the processing

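No cofactor passed the threshold under any alternative, with 132 values in all and a lowest limma adjusted p of 0.162 (TBCD in the brightest 25% of clusters). TBCB and TBCD kept negative and TBCE and TBCEL positive fold changes throughout. Log2 fold changes near 0 changed sign: TBCC to -0.02 after quantile normalization and TBCCD1 to 0.003 with arrays centred on their medians. Without single arrays TBCA ranged from -0.09 to 0.01, TBCC from -0.02 to 0.02, TBCCD1 from -0.04 to 0.01, TBCB from -0.09 to -0.04, TBCD from -0.10 to -0.07, TBCE from 0.08 to 0.14 and TBCEL from 0.04 to 0.09. TBCB minus TBCE changed by -0.21 to -0.15 without single arrays (adjusted exact permutation p 0.0346 to 0.104), and by -0.18 with a replicate block (adjusted sign-flip permutation p = 0.125). With that block the smallest unadjusted p is 0.0312, so it could not reach the threshold for a lone pair of 4. Without single arrays TBCE minus TBCEL ranged from -0.008 to 0.09, TBCA minus TBCD from 0.0042 (without control replicate 1) to 0.10 and TBCC minus TBCCD1 from -0.0023 to 0.04.

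The 6 clusters called over the array became 39 with a trend and robust prior, 13 at or above the median mean, 242 in the brightest 25%, 0 with 1 cluster per named gene, 0 with a replicate block, and 0 to 6 without single arrays. A replicate block changed no other call. With changed scaling, a replicate block or single arrays left out, the 13 named list genes kept their signs, and 0 passed. These genes were not followed under the other prior or the filters. Leaving out 1 mimic-1825 replicate moved HDAC6 to -0.04 (replicate 6), ELMOD3 to 0.07 and MZT1 to 0.08 (replicate 2), MZT1 to 0.03 (replicate 3) and VASH1 to 0.05 (replicate 5). No cofactor had another named cluster to use in its place. The cause of these changes was not tested.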
